A study of Mus musculus with 30 samples.

Results

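The transforming growth factor beta (TGF-beta) genes measured here are 44 genes for ligands, the proteins that keep and release latent TGF-beta, receptors, SMAD proteins and their inhibitors. They were taken as a fixed list of symbols, and all 44 had a probe among the 36717 genes and transcripts of the array. For 16 of the 44 with several probes the brightest on average was used, and values are log2 quantile-normalized intensities unless a difference is named. On the scanner's own test 42 of the 44 were well above background on all 30 arrays. Ltbp2 was well above background on 29 arrays and Bambi, a decoy receptor, on 0, so Bambi is plotted but its differences are not read. A gene is said to be called where limma's p, adjusted over all genes tested, fell below 0.05.

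The arrays came from 15 perfused mice aged 15 to 20 months, with 1 array for the hippocampus and 1 for the brain without the hippocampus of each mouse (called brain here). 3xTgAD mice, a model of Alzheimer's disease whose alleles include mutant human APP and MAPT transgenes under the neuronal Thy1 promoter, gave 2 females and 3 males. The JHT_3xTgAD cross, called 3xTgAD-BKO (BKO in the plots), carries the same alleles and lacks mature B cells through the deletion of the joining segments of the immunoglobulin heavy chain locus, and gave 2 females and 3 males. WT mice gave 3 females, and JHT mice, which lack B cells but carry no Alzheimer alleles, gave 2 females. The labels give the strain of all 4 genotypes as C57BL/6j, and the methods call the 3xTgAD line congenic, but the stock names given there for 3xTgAD and JHT include another strain beside B6. How much of that strain's genome these mice still carry is not given in the sources used here, so genotype and strain background cannot be told apart in the differences between genotypes. No WT or JHT male was measured, so 3xTgAD was set against WT in females alone.

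TGF-beta is secreted in a latent complex with its own propeptide, which binding proteins of the LTBP family tether to matrix and which LRRC32 and NRROS tether to cell surfaces, NRROS in microglia. Integrins such as alphaV-beta8 and thrombospondin release the ligand, which then brings type II and type I receptors together. The type I receptor TGFBR1 phosphorylates SMAD2 and SMAD3, whereas ALK1, the product of Acvrl1, and the BMP receptors phosphorylate SMAD1, SMAD5 and SMAD9. ALK1 and its co-receptor endoglin, the product of Eng, are known for their place in endothelial cells, and TGF-beta itself is known to maintain the adult identity of microglia.

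The hippocampal array of 3xTgAD-BKO mouse 0 had 154 non-uniform spots against 0 to 8 on the other 29 arrays. On 4 hippocampal arrays (3xTgAD mouse 4, 3xTgAD-BKO mouse 7 and JHT mice 13 and 14) the mean of 8 choroid plexus markers was 12.4 to 13.3, against 6.25 to 9.12 on the other 11. Of 10 markers of hippocampal neurons 8 were higher in the hippocampus, and of 11 markers of other brain regions 10 were lower there. The mean of 8 blood markers (red cells and neutrophils) was 12.4 and 12.6 on the hippocampal arrays of 3xTgAD-BKO mouse 0 and JHT mouse 14 and 9.66 to 10.93 on the other 13. In the brain it was 12.2 to 13.1 on those of 3xTgAD mouse 2, 3xTgAD-BKO mouse 0 and JHT mouse 14 and 9.98 to 11.73 on the other 12, and its part in the results was not tested. The arrays lay on 4 slides that were each scanned once. The 3xTgAD arrays and the female 3xTgAD-BKO arrays of a tissue shared a slide, and WT and JHT shared another. In bulk tissue, fewer cells of a type and less RNA per cell cannot be told apart.

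Between the tissues, 30 of the 44 genes differed, 13 higher and 17 lower in the hippocampus. That is 68.2% of the members, while 51.1% of all genes tested differed in the same comparison. By role, the counts were 4 of 7 ligands, 8 of 10 genes of latency and activation, 10 of 12 receptors and co-receptors, 5 of 8 SMADs and 3 of 7 inhibitors and co-repressors. The median difference was -0.07 over the members and -0.00 over all genes, so the members moved in both directions. Tissue and slide were nearly the same split, and with the slide as a block 14 of the 44 were called. That fit rests on the male 3xTgAD-BKO mice, since the tissues met only on slide 2, which held 1 brain array, that of mouse 0.

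**Figure D1:**
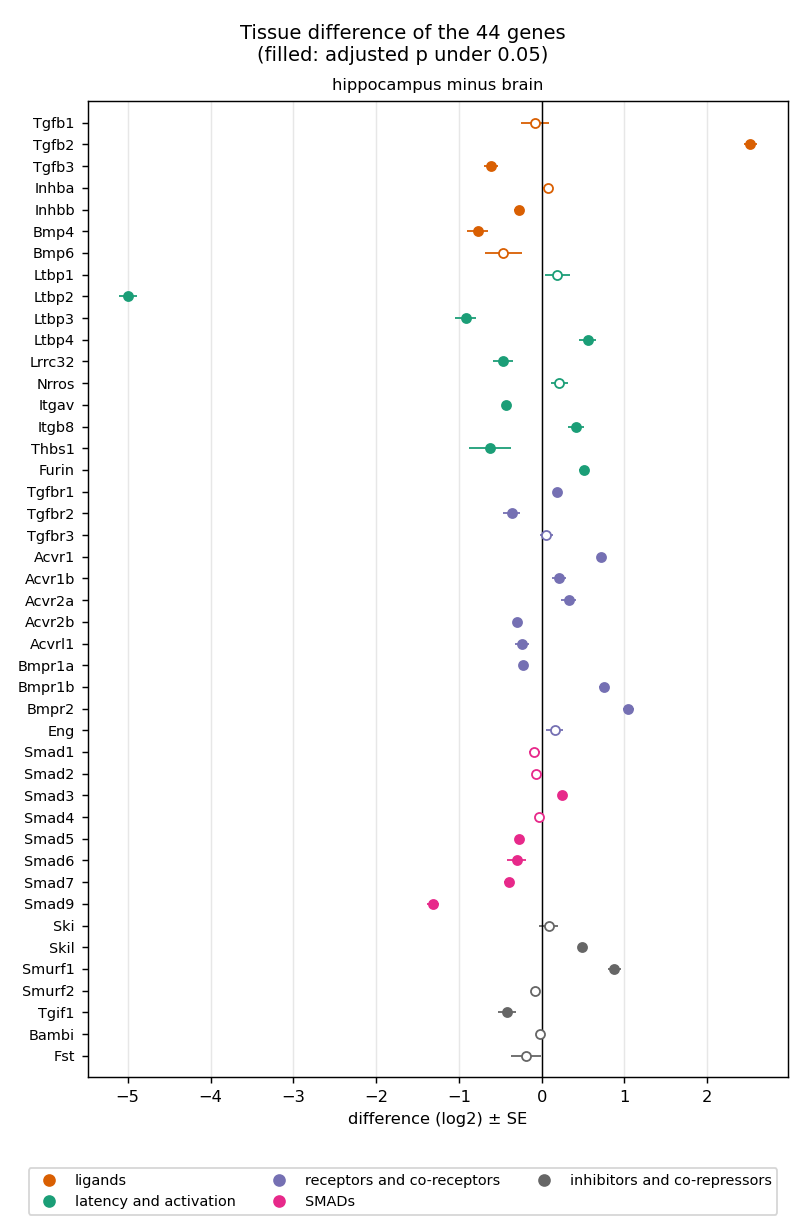
Difference between hippocampus and brain (log2, x axis) for each of the 44 genes (y axis), with bars for limma's SE and colours for the role in the pathway. Filled points passed the adjusted threshold, and Ltbp2 at -5.00 and Tgfb2 at 2.52 lie farthest from 0.

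Among the ligands, Tgfb2 stood far higher in the hippocampus. Its level there had a lowest value of 12.14, a median of 12.55 and a highest value of 13.49 over 15 arrays, and in the brain 9.86, 10.10 and 10.38. All 15 mice were higher in the hippocampus and the tissues did not overlap. The difference was 2.52 (SE 0.08, limma adjusted p = 3.49e-16), about 5.74-fold, and a second Tgfb2 probe gave 2.59. Tgfb3 went the other way, with 9.81, 10.77 and 11.10 in the hippocampus and 11.07, 11.37 and 11.63 in the brain, lower in the hippocampus of all 15 mice. Its difference was -0.62 (SE 0.09, adjusted p = 3.29e-06), but 0.27 with the slide as a block. Tgfb1 lay near the same level in both tissues, at a median of 6.88 in the hippocampus and 6.82 in the brain, with a difference of -0.08 (SE 0.17, adjusted p = 0.729).

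Bmp4, a ligand of the BMP branch, had a lowest level of 7.95, a median of 8.63 and a highest level of 9.98 in the hippocampus, against 9.43, 9.78 and 10.05 in the brain. It was lower in the hippocampus by a difference of -0.77 (SE 0.13, adjusted p = 2.27e-05), though 3 of 15 mice were higher there. Its hippocampal level was 9.29 to 9.98 on the 4 arrays with high choroid plexus markers and 7.95 to 9.44 on the other 11. Bmp6, another BMP ligand, was at 8.42 to 10.51 on those 4 arrays and 7.01 to 9.31 on the others, with a tissue difference of -0.46 (adjusted p = 0.0969). The part of choroid plexus in these levels was not tested. With the slide as a block, the Bmp4 difference was -0.95 with an adjusted p of 0.213.

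Ltbp2, a matrix protein of the LTBP family, had the largest tissue difference of the 44. Its hippocampal level had a lowest value of 4.68, a median of 5.32 and a highest value of 5.85, against 9.73, 10.30 and 10.83 in the brain. The ranges lay far apart and all 15 mice were lower in the hippocampus, with differences from -5.87 to -4.36. The difference was -5.00 (SE 0.11, adjusted p = 1.46e-18) and lay between -5.44 (the slide as a block) and -3.67 (normexp background correction) over the alternatives on the log2 scale. Ltbp3, which aids secretion of latent TGF-beta, had levels of 10.18, 10.98 and 11.91 (lowest, median and highest) in the hippocampus and 11.75, 11.96 and 12.33 in the brain. It was lower in the hippocampus of 14 of 15 mice, by a difference of -0.92 (SE 0.13, adjusted p = 2.61e-06), while a second Ltbp3 probe gave -0.07. Ltbp4, another LTBP family member, had 11.88, 12.62 and 13.19 in the hippocampus and 11.51, 12.04 and 12.52 in the brain, so its ranges overlapped. It was higher in the hippocampus of 15 of 15 mice by 0.56 (SE 0.10, adjusted p = 0.000104), but at -0.08 with the slide as a block. Thbs1, which encodes the activator thrombospondin, ranged from 4.89 to 7.88 in the hippocampus (median 6.11) and from 6.70 to 7.51 in the brain (median 7.17). Its difference of -0.62 (SE 0.26, adjusted p = 0.0495) went the other way in 5 of 15 mice, and the call was lost in 11 of the 15 fits that left out 1 mouse (all but those without mouse 0, 4, 7 or 12), at adjusted p-values of 0.0734 to 0.155. On the 4 arrays with high choroid plexus markers hippocampal Thbs1 was 7.17 to 7.88 and Ltbp3 11.07 to 11.91, against 4.89 to 7.44 and 10.18 to 11.44 on the other 11, and the part of choroid plexus in these values was not tested.

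The promoters of the ligand and of the binding protein with the largest tissue differences are shown because these genes went in opposite directions. Both come from RefSeq on GRCm38.p6, each on the minus strand and running from before the gene's start into it, Tgfb2 at chr1:186705940-186706239 and Ltbp2 at chr12:84876442-84876741. Capitals mark every match, on either strand, to the SMAD box CAGAC, to the GC-rich SMAD element GGCGCC, to the GC box GGGCGG or to the ETS core CGGAAG.
Tgfb2: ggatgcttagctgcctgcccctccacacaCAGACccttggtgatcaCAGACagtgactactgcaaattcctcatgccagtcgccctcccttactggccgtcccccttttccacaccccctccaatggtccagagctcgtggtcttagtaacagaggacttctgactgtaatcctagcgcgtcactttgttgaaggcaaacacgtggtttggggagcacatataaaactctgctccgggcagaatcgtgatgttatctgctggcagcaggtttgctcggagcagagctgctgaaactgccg
Ltbp2: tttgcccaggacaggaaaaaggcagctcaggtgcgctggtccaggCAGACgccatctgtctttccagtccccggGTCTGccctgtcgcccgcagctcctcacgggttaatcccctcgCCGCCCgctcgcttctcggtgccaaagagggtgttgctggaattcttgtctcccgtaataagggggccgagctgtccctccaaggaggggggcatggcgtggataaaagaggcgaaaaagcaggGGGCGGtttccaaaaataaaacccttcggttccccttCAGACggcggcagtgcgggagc
The Tgfb2 window holds 2 SMAD boxes and the Ltbp2 window 3, together with 2 GC boxes. A SMAD box was present in 49.6% of 32851 promoter windows of the same length, a GC box in 35.7%, the GC-rich SMAD element in 11.9% and an ETS core in 16.9%. Of the 33 members with a promoter in the table, 16 held a SMAD box, 22 a GC box, 8 the GC-rich SMAD element and 4 an ETS core.

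The receptors and SMADs also split by tissue. Bmpr2, the type II BMP receptor, had levels of 10.37, 10.73 and 11.08 (lowest, median and highest) in the hippocampus and 9.20, 9.67 and 10.06 in the brain, without overlap. It was higher in the hippocampus of 15 of 15 mice, by 1.04 (SE 0.07, adjusted p = 4.44e-11). Acvr1, a type I receptor of the BMP branch, had 12.39, 12.73 and 13.04 against 11.80, 11.98 and 12.23, again without overlap. It was higher in all 15 mice by 0.72 (SE 0.05, adjusted p = 5.92e-11). Bmpr1b, a type I BMP receptor, had 9.05, 9.73 and 10.16 against 8.42, 8.87 and 9.30. It was higher in 15 of 15 mice by 0.75 (SE 0.06, adjusted p = 4.39e-09), but its second probe gave -0.49, so the 2 probes disagree in direction. Smad9, a BMP-branch SMAD, had levels of 7.93, 8.40 and 8.73 (lowest, median and highest) in the hippocampus and 9.28, 9.67 and 9.98 in the brain, without overlap. It was lower in the hippocampus of all 15 mice by a difference of -1.31 (SE 0.07, adjusted p = 2.2e-12). Smurf1, a ubiquitin ligase that removes SMADs and receptors, had 7.67, 8.23 and 8.47 against 6.87, 7.22 and 8.16. It was higher by 0.88 (SE 0.08, adjusted p = 7.1e-09) in 15 of 15 mice, and 0.40 with an adjusted p of 0.303 with the slide as a block. Over the 11 members with several probes above background on all arrays, the probes had the same direction between tissues in 7.

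Between genotypes, 1 receptor stood out. Acvrl1, which encodes the type I receptor ALK1, was lower in every 3xTgAD mouse than in every mouse of the other 3 genotypes, in both tissues. Gdf10 and Cldn5, given below, had the same order, and the share of all genes with this order was not counted. In the hippocampus its level was 9.32 and 9.24 in 3xTgAD females and 9.68, 9.47 and 9.16 in males. In 3xTgAD-BKO it was 9.85 and 10.38 in females and 10.54, 10.64 and 10.32 in males. WT females had 10.61, 10.35 and 10.47, and JHT females 10.78 and 10.85. The highest 3xTgAD value, 9.68, lay below the lowest of the other 10 arrays, 9.85.

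The brain gave the same order for Acvrl1. Its level was 9.44 and 9.59 in 3xTgAD females, 9.86, 9.71 and 9.36 in 3xTgAD males, 10.29 and 10.57 in 3xTgAD-BKO females and 10.40, 11.10 and 10.56 in 3xTgAD-BKO males. WT females had 11.14, 10.72 and 10.70 and JHT females 10.91 and 10.91. Between the tissues Acvrl1 differed by -0.23 (hippocampus minus brain, SE 0.08, adjusted p = 0.0255). Here too the 3xTgAD arrays (highest 9.86) lay below all 10 others (lowest 10.29).

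**Figure D2:**
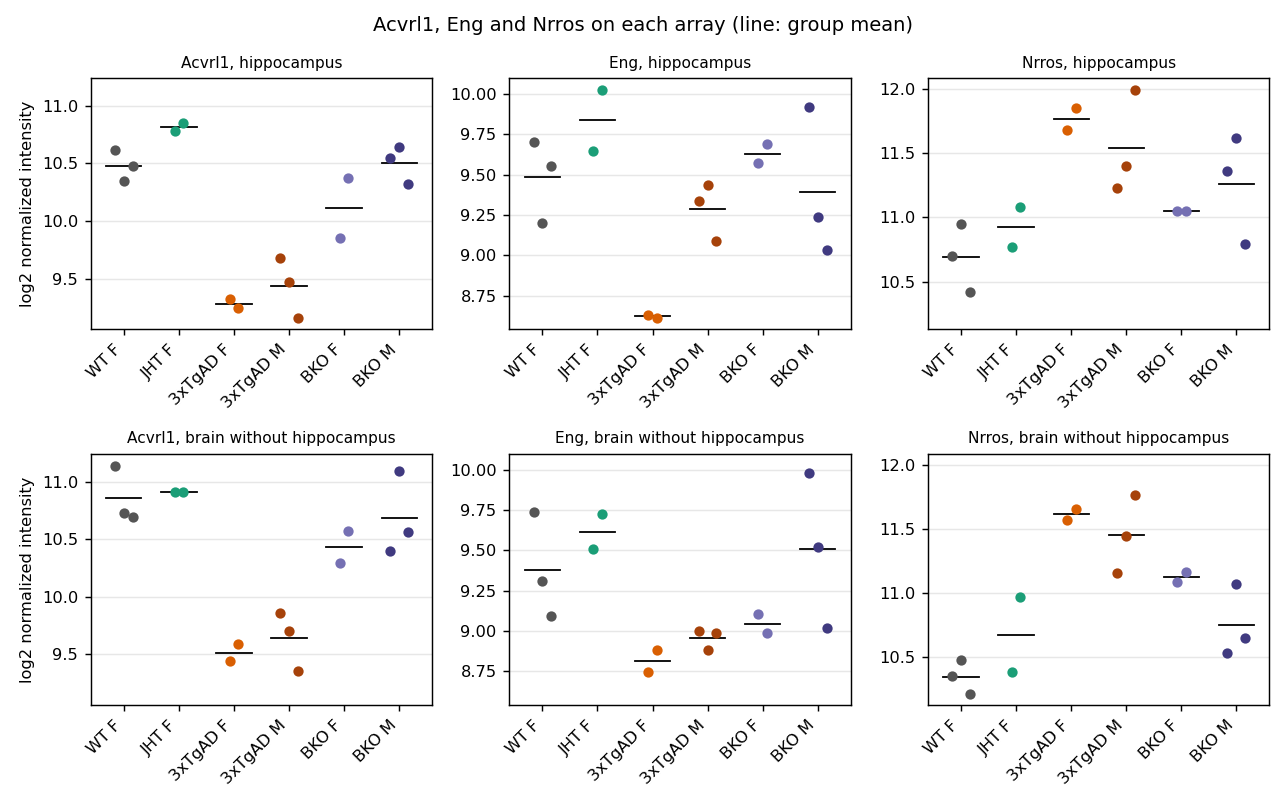
Log2 normalized intensity (y axis) of Acvrl1, Eng and Nrros on each array (points), by genotype and sex (x axis, F female, M male, BKO 3xTgAD-BKO), with hippocampus above and brain below and a line at each group mean. The 5 Acvrl1 points of 3xTgAD lie at 9.16 to 9.68 in the hippocampus and 9.36 to 9.86 in the brain, below all other arrays of the tissue.

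Over both sexes, Acvrl1 was higher in 3xTgAD-BKO than in 3xTgAD by 0.95 in the hippocampus (SE 0.13, adjusted p = 0.0067), about 1.93-fold, and by 0.98 in the brain (SE 0.16, adjusted p = 0.00819), about 1.97-fold. Without mouse 0 the values were 0.94 (adjusted p = 0.0146) and 1.05 (adjusted p = 0.00773). It was the single member of 44 called in each tissue, while 1.02% of all genes tested were called in the hippocampus and 2.64% in the brain. In males alone it was again the single member called, at 1.06 in the hippocampus (adjusted p = 0.018, 0.847% of all genes called) and 1.04 in the brain (adjusted p = 0.0366, 0.961% of all genes called). Blocks on the slide or on the mouse raised the number of members called in males of both tissues, as given below. Leaving out 1 of mice 0, 4, 5 or 8 moved the male hippocampal value to adjusted p-values of 0.0535 to 0.0619. The male brain call was lost in 12 of the 15 fits that left out 1 mouse, all but those without mouse 0, 9 or 10, at adjusted p-values of 0.0515 to 0.128. In females the differences were 0.83 (adjusted p = 0.119) and 0.92 (adjusted p = 0.117), and limma called 0 of the 44 in either tissue, where 0.37% of all genes were called in the hippocampus and 1.12% in the brain. The female value passed the threshold without mouse 6 in the hippocampus (adjusted p = 0.0415) and without mouse 8, a male whose array enters the shared spread, in the brain (adjusted p = 0.0456). At an unadjusted p under 0.05 there were 13 members in the female hippocampus and 9 in the female brain, against 16.4% and 12.9% of all genes.

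Against WT females, Acvrl1 was lower in 3xTgAD females by a difference of -1.20 in the hippocampus (SE 0.18, adjusted p = 0.0173) and -1.34 in the brain (SE 0.22, adjusted p = 0.018). The 3xTgAD females also enter the comparison with 3xTgAD-BKO, and they lay on other slides than WT. With the slide as a block the values were -1.26 (adjusted p = 0.0384) and -1.87 (adjusted p = 0.025). The slide term rested on 3xTgAD-BKO males, mouse 0 (10.54) against mice 8 and 9 (10.64 and 10.32) in the hippocampus. In the brain it set mouse 8 (11.10) against mouse 9 (10.56), so slide and mouse cannot be told apart. Without WT mouse 10 or 12 or 3xTgAD mouse 1 or 2, the hippocampal adjusted p was 0.0575 to 0.0946. Without 3xTgAD mouse 1 or 2, that of the brain was 0.058 to 0.0969. In this comparison limma called 1 of the 44 in the hippocampus, with 0.746% of all genes called, and 2 of the 44 in the brain, with 1.15%. Both the females of 3xTgAD and those of 3xTgAD-BKO lay on 1 slide in each tissue, where Acvrl1 differed by 0.83 and 0.92, and the single 3xTgAD-BKO male on that slide differed from the 3 3xTgAD males by 1.11 on slide 1 (hippocampus) and 1.46 on slide 3 (brain).

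JHT and WT, which differ in B cells without the Alzheimer alleles, differed in Acvrl1 by 0.33 in the hippocampus (95% interval -0.07 to 0.74, adjusted p = 0.708) and by 0.06 in the brain (-0.43 to 0.54, adjusted p = 1). Limma called 0 of the 44 between JHT and WT in either tissue, with 5 at an unadjusted p under 0.05 in the hippocampus and 4 in the brain, against 7.83% and 6.31% of all genes. Of all genes tested, 0.0926% were called after adjustment in the hippocampus and 0.161% in the brain. Both JHT hippocampal arrays were among those with high choroid plexus markers.

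Eng, which encodes the co-receptor endoglin, gave no call between genotypes and was singled out after its values were seen. In the hippocampus it was 8.63 and 8.61 in 3xTgAD females, 9.34, 9.44 and 9.09 in 3xTgAD males, 9.57 and 9.69 in 3xTgAD-BKO females and 9.92, 9.24 and 9.03 in 3xTgAD-BKO males. WT females had 9.70, 9.20 and 9.55 and JHT females 9.65 and 10.03, so the 2 3xTgAD females were the lowest 2 of 15. The female difference between 3xTgAD-BKO and 3xTgAD was 1.01 (SE 0.27, adjusted p = 0.143) and the male one 0.11 (SE 0.22, adjusted p = 0.841), which turned to -0.15 without mouse 0 (adjusted p = 0.701). The sexes were compared directly with an adjusted p of 0.172, and of 0.0736 without mouse 0. With the slide as a block, Eng was called over both sexes in the hippocampus at 0.82 (adjusted p = 0.00522) and against WT at -1.65 (adjusted p = 0.00581). The slide term of that fit rested on 3xTgAD-BKO males alone. It set mouse 0 (9.92), whose array had the many non-uniform spots, against mice 8 and 9 (9.24 and 9.03). In the brain, 9 of the 10 arrays of other genotypes lay above all 3xTgAD arrays for Eng, and the difference over both sexes was 0.39 (adjusted p = 0.338).

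Nrros, which tethers latent TGF-beta at the surface of microglia, was higher in 3xTgAD than in WT females in the brain. Its brain level was 11.57 and 11.66 in 3xTgAD females and 11.15, 11.44 and 11.76 in males, against 10.36, 10.48 and 10.22 in WT females and 10.38 and 10.97 in JHT females. The 3xTgAD-BKO mice had 11.09 and 11.17 in females and 10.53, 11.07 and 10.65 in males, above all 3 WT mice and overlapping with the lowest 3xTgAD mouse and with JHT. With the slide as a block, the difference of 3xTgAD from WT was 0.84 (adjusted p = 0.339). The slide term there rested on 3xTgAD-BKO males, mouse 8 (11.07) against mouse 9 (10.65). Without the block the difference was 1.26 (SE 0.22, adjusted p = 0.0224), about 2.40-fold. Without mouse 1, 2, 10 or 12 its adjusted p was 0.0564 to 0.108.

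In the hippocampus Nrros was 11.68 and 11.85 in 3xTgAD females and 10.70, 10.95 and 10.42 in WT females, a difference of 1.08 (SE 0.27, adjusted p = 0.125). In a fit of all 30 arrays with the mouse as a replicate block, that adjusted p was 0.0203. The difference between 3xTgAD-BKO and 3xTgAD over both sexes was -0.60 in the brain (SE 0.15, adjusted p = 0.0806) and -0.50 in the hippocampus (SE 0.19, adjusted p = 0.37). With dim probes left out or without mouse 8 the brain value passed the threshold, at 0.0477 and 0.0445. The mean of 12 microglial markers was 11.70 to 11.74 on the female 3xTgAD brain arrays and 11.79 to 11.90 on the WT ones, and limma called 0 of the 12 between these groups, with 2 at an unadjusted p under 0.05, against 10.96% of all genes. Between 3xTgAD-BKO and 3xTgAD in the brain, where 2.64% of all genes were called, 1 of the 12 was called, Fcrls, a microglial receptor gene, higher in 3xTgAD-BKO by 1.07 (adjusted p = 0.0126). The mean of the 12 there was 11.59 to 11.74 in 3xTgAD and 11.74 to 11.98 in 3xTgAD-BKO, and its part in the Nrros values was not tested.

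The Nrros promoter is shown because it is the member, next to Acvrl1, called between 3xTgAD and WT. It lies on the minus strand at chr16:32165545-32165844 (RefSeq, GRCm38.p6), and the capitals mark its 1 match to the motifs searched above, a SMAD box.
Nrros: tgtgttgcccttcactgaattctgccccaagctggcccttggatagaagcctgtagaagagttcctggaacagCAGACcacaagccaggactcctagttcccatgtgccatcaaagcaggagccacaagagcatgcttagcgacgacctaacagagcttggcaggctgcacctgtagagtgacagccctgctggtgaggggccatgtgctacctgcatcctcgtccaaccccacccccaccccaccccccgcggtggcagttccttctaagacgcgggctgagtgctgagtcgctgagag

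**Figure D3:**
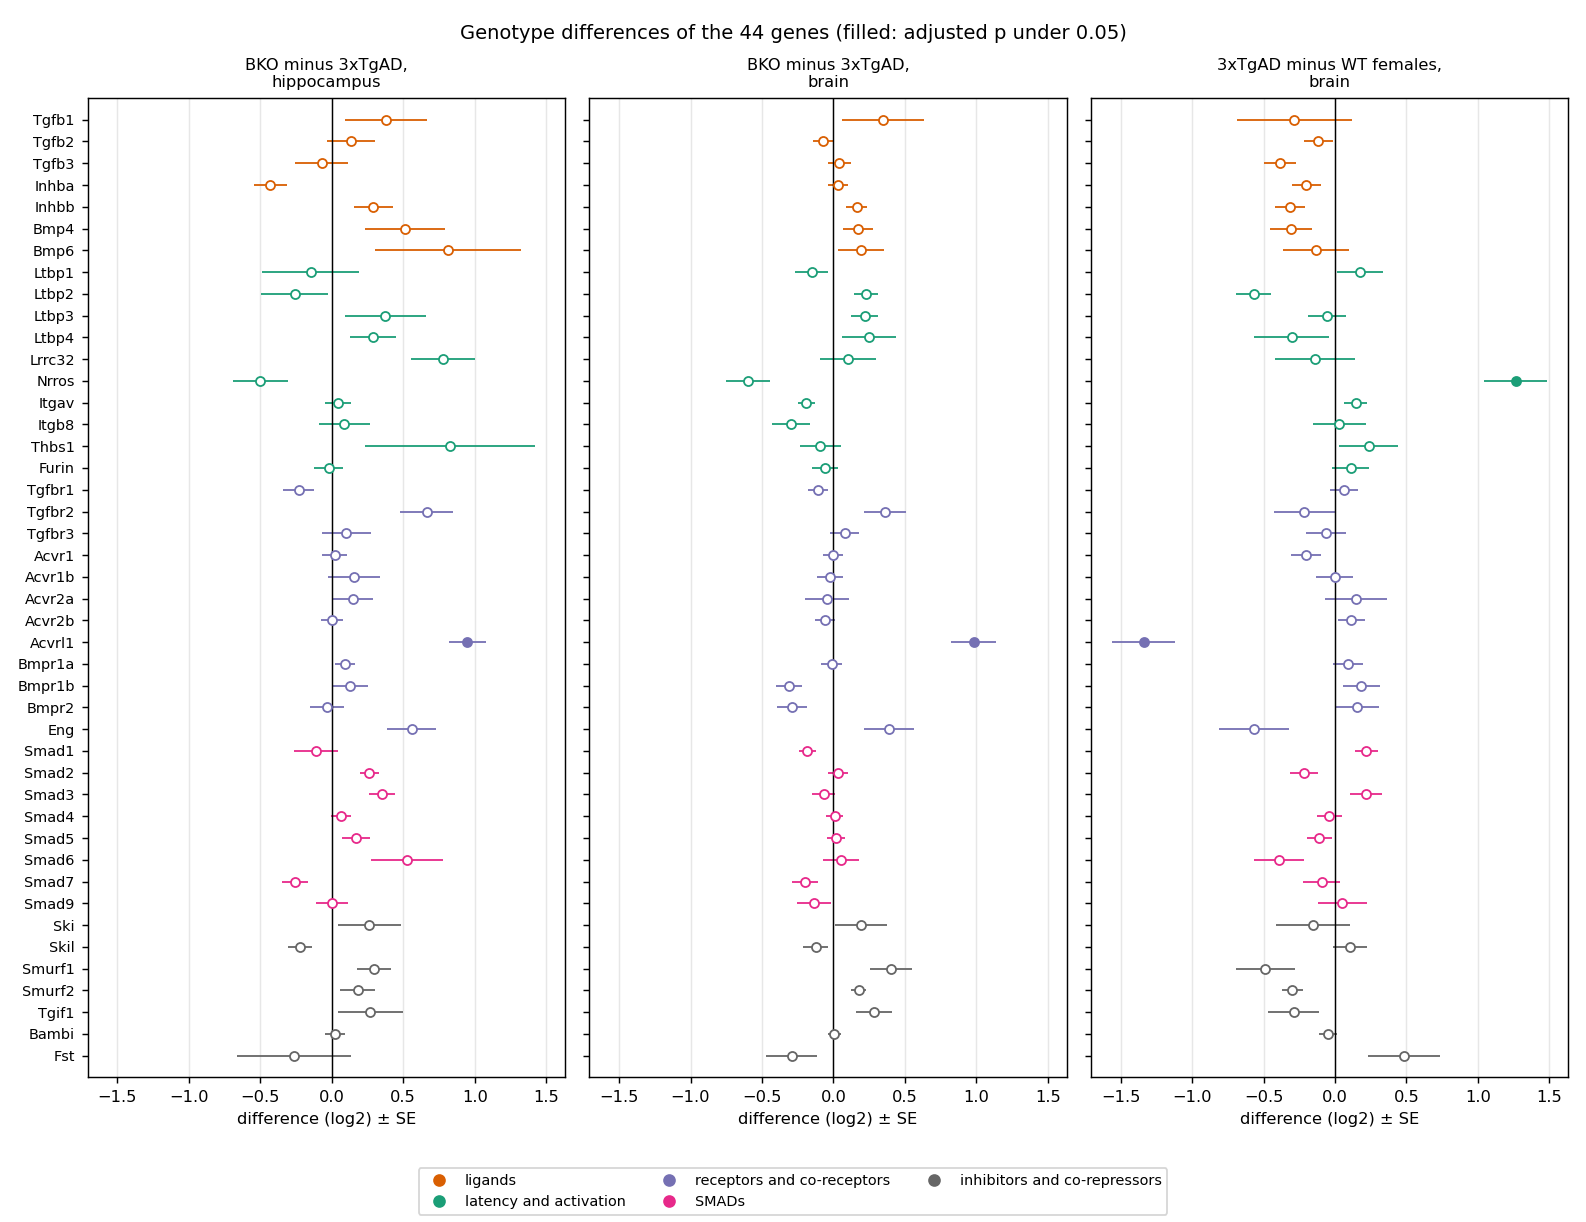
Genotype differences (log2, x axis) of the 44 genes (y axis) for 3xTgAD-BKO minus 3xTgAD over both sexes in hippocampus and brain and for 3xTgAD minus WT females in the brain, with bars for limma's SE. Filled points passed the adjusted threshold, and these were Acvrl1 at 0.95, 0.98 and -1.34 and Nrros at 1.26.

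The 3 TGF-beta ligands were not called in any genotype comparison. Tgfb1, the isoform that microglia make, had hippocampal levels of 6.41 and 6.14 in 3xTgAD females, 6.91, 7.05 and 6.65 in 3xTgAD males, 7.18 and 7.39 in 3xTgAD-BKO females and 7.36, 6.16 and 6.34 in 3xTgAD-BKO males. WT females had 6.88, 6.00 and 7.28 and JHT females 6.75 and 7.34, so WT alone spanned most of the range. The difference of 3xTgAD-BKO from 3xTgAD over both sexes was 0.38 (SE 0.29, adjusted p = 0.748), with 1.01 in females (adjusted p = 0.296) and -0.25 in males (adjusted p = 0.752). Without mouse 0 the values were 0.19 over both sexes (adjusted p = 0.888) and -0.62 in males (adjusted p = 0.363). Set against each other, the changes of the sexes differed by 1.26 (adjusted p = 0.241), and by 1.63 without mouse 0 (adjusted p = 0.0936).

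In the brain Tgfb1 was 6.50 and 6.60 in 3xTgAD females, 6.82, 6.84 and 6.55 in 3xTgAD males, 6.97 and 6.59 in 3xTgAD-BKO females and 7.93, 6.90 and 6.76 in 3xTgAD-BKO males. WT females had 7.50, 6.24 and 6.77 and JHT females 6.84 and 7.56, again with wide overlap. The difference over both sexes was 0.35 (SE 0.28, adjusted p = 0.622) and 0.16 without mouse 0, whose level of 7.93 was the highest of the 15 (adjusted p = 0.797). 3xTgAD differed from WT by -0.29 (adjusted p = 0.906).

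Tgfb2, the isoform with the tissue difference, had hippocampal levels of 12.63 and 12.76 in 3xTgAD females, 12.40, 12.55 and 12.51 in 3xTgAD males, 12.40 and 12.54 in 3xTgAD-BKO females and 13.49, 12.93 and 12.53 in 3xTgAD-BKO males. WT females had 12.54, 12.14 and 12.67 and JHT females 12.74 and 12.69. In the brain all 15 Tgfb2 values lay between 9.86 and 10.38, with the 5 3xTgAD arrays at 9.97 to 10.21, WT at 10.25 to 10.29 and JHT at 10.24 to 10.25. The difference between 3xTgAD-BKO and 3xTgAD was 0.13 in the hippocampus (SE 0.17, adjusted p = 0.843), where it was 0.00878 without mouse 0, and -0.07 in the brain (SE 0.07, adjusted p = 0.701).

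Tgfb3, the third isoform, had hippocampal levels of 10.59 and 10.77 in 3xTgAD females, 10.62, 10.69 and 10.76 in 3xTgAD males, 10.79 and 10.66 in 3xTgAD-BKO females and 9.81, 10.94 and 10.74 in 3xTgAD-BKO males. WT females had 10.90, 11.10 and 10.77 and JHT females 10.90 and 10.79. The difference between 3xTgAD-BKO and 3xTgAD was -0.07 (SE 0.19, adjusted p = 0.946), and 0.10 without mouse 0, whose array had the many non-uniform spots. The fit with slides as a block gave -0.42 (adjusted p = 0.0231). Its slide term set that same mouse 0 (9.81) against mice 8 and 9 (10.94 and 10.74). In the brain Tgfb3 was 11.20 and 11.17 in 3xTgAD females and 11.55, 11.63 and 11.53 in WT females, a difference of -0.38 (SE 0.11, adjusted p = 0.193), and 3xTgAD-BKO differed from 3xTgAD by 0.04 (SE 0.08, adjusted p = 0.853).

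**Figure D4:**
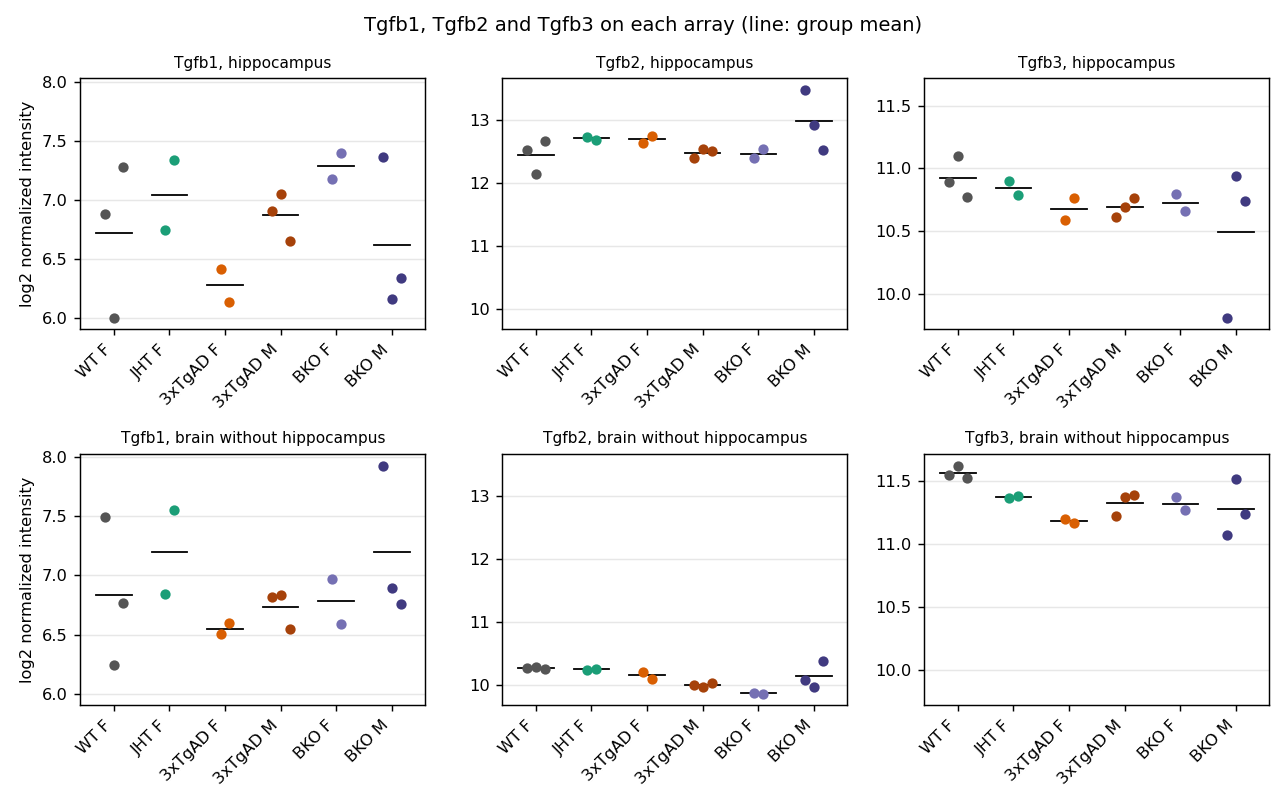
Log2 normalized intensity (y axis) of Tgfb1, Tgfb2 and Tgfb3 on each array (points), by genotype and sex (x axis), hippocampus above and brain below, with a line at each group mean. Tgfb2 lies at 12.14 to 13.49 in the hippocampus and 9.86 to 10.38 in the brain, and in the brain the WT arrays of Tgfb3 (11.53 to 11.63) lie above the 12 others.

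The remaining members gave no call between 3xTgAD-BKO and 3xTgAD in the fits without a block. Blocks on the slide or on the mouse raised the hippocampal count, as given below with the shares of all genes. In the hippocampus the nearest were Smad3, a TGF-beta-branch SMAD, at 0.35 (SE 0.09, adjusted p = 0.123), Smad2, its partner, at 0.26 (SE 0.07, adjusted p = 0.139), the activin subunit gene Inhba at -0.43 (SE 0.11, adjusted p = 0.143) and the type II receptor gene Tgfbr2 at 0.66 (SE 0.18, adjusted p = 0.166). At an unadjusted p under 0.05 were 11 of 44 in the hippocampus and 15 of 44 in the brain, against 10.5% and 14.5% of all genes. The groups of 5 did not overlap for 4 members in the hippocampus and 2 in the brain, where 2.29% and 4.50% of all genes did not overlap. The median change was 0.13 over the members in the hippocampus and 0.01 in the brain, against 0.01 and 0.00 over all genes.

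No member was called in the difference of the 3xTgAD-BKO change between the sexes by limma without a block, with 16 at an unadjusted p under 0.05 in the hippocampus and 7 in the brain, against 21.2% and 8.75% of all genes. With the slide or the mouse as a block, members were called in the hippocampus, as given below. After adjustment 0.0245% and 0.101% of all genes were called. The lowest adjusted p in the hippocampus was 0.0732, that of Skil, a SMAD co-repressor, at -0.76. Between hippocampus and brain the 3xTgAD-BKO change was called to differ for 0 of 44, with 6 at an unadjusted p under 0.05, against 6.03% of all genes, and 0.0899% of all genes called after adjustment. For Acvrl1 the difference of the change between the tissues was -0.03 (95% interval -0.46 to 0.40), and between the sexes -0.23 in the hippocampus (-0.81 to 0.34) and -0.13 in the brain (-0.82 to 0.56).

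Of 45 other genes of the pathway, 3 were called between 3xTgAD-BKO and 3xTgAD in the hippocampus, 1 higher and 2 lower, and 3 in the brain, 1 higher and 2 lower, where 1.02% and 2.64% of all genes were called. They were Gdf10, Itgb3 and Neo1 in each tissue. Gdf10, a BMP-family ligand, was higher in 3xTgAD-BKO by 0.86 in the hippocampus (SE 0.14, adjusted p = 0.0178) and 0.78 in the brain (SE 0.11, adjusted p = 0.00405). Its 5 3xTgAD arrays lay at 8.10 to 8.43 in the hippocampus and 9.85 to 10.20 in the brain, below all 10 other arrays of the tissue, at 8.82 to 9.42 and 10.62 to 11.15. Against WT females, Gdf10 was lower in 3xTgAD by a difference of -0.87 in the brain (SE 0.15, adjusted p = 0.0262).

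Neo1, which encodes the co-receptor neogenin of netrins and BMP-family ligands, went the opposite way. Its difference of 3xTgAD-BKO from 3xTgAD was -0.61 (SE 0.09, adjusted p = 0.0126) in the hippocampus and -0.36 (SE 0.07, adjusted p = 0.0223) in the brain, and all 10 arrays of other genotypes lay below the 5 3xTgAD arrays in each tissue. Itgb3, an integrin subunit that pairs with alphaV, had differences of -0.85 (SE 0.15, adjusted p = 0.0296) and -0.76 (SE 0.10, adjusted p = 0.00256). Its pattern differed from that of Neo1, since the 3xTgAD-BKO arrays lay at 6.71 to 7.66 in the hippocampus and 7.52 to 7.86 in the brain, while 3xTgAD lay at 7.96 to 8.15 and 8.19 to 8.67 and WT and JHT at 7.93 to 8.23 and 8.23 to 8.44. Fbn1, which encodes the matrix protein fibrillin-1, was the one gene of this list called between JHT and WT, at 1.37 in the hippocampus (SE 0.19, adjusted p = 0.0272), where 0.0926% of all genes were called. Its level was 7.68 to 8.04 on the 4 hippocampal arrays with high choroid plexus markers, both JHT arrays among them, and 6.42 to 7.60 on the other 11, and the part of choroid plexus in the difference was not tested.

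Of 19 genes that TGF-beta or BMP signals are known to induce or repress, 1 was called in the hippocampus and 3 in the brain between 3xTgAD-BKO and 3xTgAD, against the same shares of all genes. Id3, a target of the SMADs that ALK1 and BMP receptors activate, was higher in 3xTgAD-BKO by 0.92 in the hippocampus (SE 0.18, adjusted p = 0.0461) and 0.73 in the brain (SE 0.11, adjusted p = 0.0069). Its hippocampal level was 11.10 to 11.77 in 3xTgAD and 11.58 to 12.54 over the other 10 arrays, with 8 of the 10 above all 3xTgAD arrays. Id4, of the same family, was higher in the brain by 0.65 (SE 0.14, adjusted p = 0.0327), and Cdkn2b, a cell cycle inhibitor that TGF-beta induces, had a difference there of -0.98 (SE 0.19, adjusted p = 0.0246). In males alone it was -1.49 (adjusted p = 0.0184). The female brain arrays overlapped, at 6.55 and 7.31 in 3xTgAD-BKO and 7.53 and 7.27 in 3xTgAD. Among males, Fn1, which encodes fibronectin, was higher in the hippocampus by 1.23 (adjusted p = 0.0459), where 0.847% of all genes were called. In females its hippocampal arrays overlapped, at 12.38 and 12.05 in 3xTgAD-BKO and 11.94 and 12.24 in 3xTgAD. In the male brain Id3 (0.92, adjusted p = 0.0125) was called beside Cdkn2b, where 0.961% of all genes were called. Of 9 meningeal fibroblast markers limma called 0 in the hippocampus over both sexes, with 7 at an unadjusted p under 0.05, against 10.5% of all genes. Their mean was 7.66 to 9.00 in 3xTgAD and 7.82 to 9.88 in 3xTgAD-BKO, with Dpt well above background on 0 arrays. Their part in these differences was not tested.

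**Figure D5:**
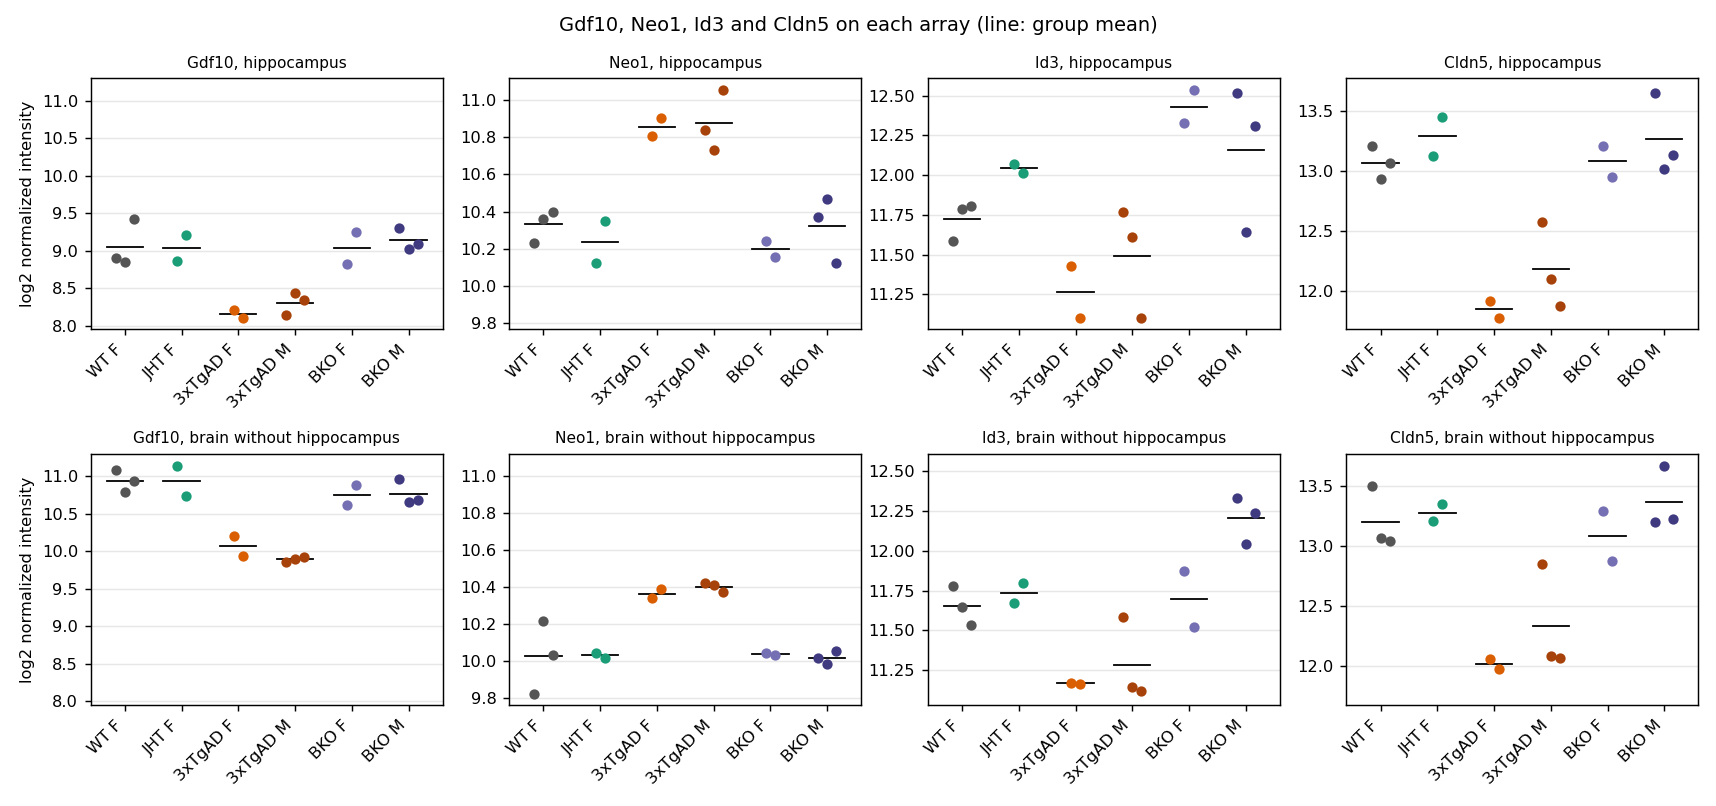
Log2 normalized intensity (y axis) of Gdf10, Neo1, Id3 and Cldn5 on each array (points), by genotype and sex (x axis), hippocampus above and brain below, with a line at each group mean. The 5 3xTgAD arrays lie below all others for Gdf10 and Cldn5 and above all others for Neo1, and for Id3 they overlap with 2 of the other 10 arrays in each tissue.

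The levels of endothelial markers are given beside Acvrl1, which endothelial cells express. Of 10 endothelial markers, all well above background on an array of each group, 1 was called higher in 3xTgAD-BKO than in 3xTgAD in the hippocampus and 2 in the brain (1.02% and 2.64% of all genes), and all 10 had a difference above 0 in both tissues, with a median of 0.41 and 0.48. Cldn5, which encodes the tight junction protein claudin-5, had differences of 1.16 (SE 0.16, adjusted p = 0.00812) in the hippocampus and 1.05 in the brain (SE 0.18, adjusted p = 0.0125), and Emcn, which encodes endomucin, had 0.99 in the brain (adjusted p = 0.0241). Between 3xTgAD and WT females all 10 had a difference below 0 in both tissues. Cldn5 was called there in the hippocampus at -1.22 (adjusted p = 0.0463, 0.746% of all genes called) and had -1.18 in the brain (adjusted p = 0.0608). The mean of the 10 markers was 9.66 to 10.09 on the 3xTgAD hippocampal arrays, 10.34 to 11.02 in 3xTgAD-BKO, 10.14 to 10.61 in WT and 10.64 to 10.96 in JHT. In the brain it was 10.01 to 10.31 in 3xTgAD, 10.40 to 11.06 in 3xTgAD-BKO, 10.47 to 10.92 in WT and 10.65 to 10.90 in JHT. The part of endothelial content in the Acvrl1 difference was not tested.

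The genes beside Acvrl1 on chromosome 15 were looked at for their place, and those named were picked after their values were seen. The strain that this region came from in each mouse was not tested. Of its 20 nearest neighbours in the GRCm38.p6 gene order, 4 were called in the brain between 3xTgAD-BKO and 3xTgAD, where 2.64% of all genes were called, with Bin2 at 1.02 (adjusted p = 0.0474), Cela1 at 0.98 (adjusted p = 0.00715), Slc4a8 at 0.44 (adjusted p = 0.0087) and Galnt6 at -0.34 (adjusted p = 0.0252). In the hippocampus the lowest adjusted p among the 20 was 0.153, and between 3xTgAD and WT females it was 0.203 for the hippocampus and 0.052 for the brain, both for Slc4a8. For Nrros, 1 of 20 neighbours, Slc51a at 1.04 (adjusted p = 0.0418), was called in the brain between 3xTgAD-BKO and 3xTgAD. Between 3xTgAD and WT the lowest adjusted p among the neighbours of Nrros was 0.103 in the hippocampus and 0.562 in the brain.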

How the data were processed

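Agilent mouse arrays were hybridized with Cy3-labelled cRNA, 1 array for each tissue of 15 mice. The authors deposited the scanner files of Agilent Feature Extraction (version 12.0.3.1), which hold for each spot a processed intensity, already background-subtracted and not yet normalized between arrays, and a background intensity. A table of scores was deposited as well, each column of which correlated at 1.00 with the log10 processed intensity of its array, with column medians from -0.31 to -0.20, so each is a rescaling within the array; its centring was not stated.

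From the 62976 spots, controls (3671) and spots marked as non-uniform or population outliers were dropped. No spot was saturated. As the methods state, intensities were quantile-normalized and log2-transformed, and the brightest probe on average was kept for each gene. The methods name raw probe intensities as the input, whereas the processed intensities were used here. Probes were named through their accessions and the RefSeq table, which gave a symbol to 28331 of 55681 probes. Between 52.6% and 62.5% of the probes were well above background on an array, which limits dim genes, and the number of arrays limits the precision.

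Groups came from the labels. Comparisons used limma 3.58.1 in R 4.3.3, fitting 6 genotype and sex groups to each tissue's 15 arrays, or 12 groups to all 30 for tissue differences, two-sided, with Benjamini-Hochberg adjustment over 36717 genes and transcripts at 0.05. Adjusted p-values are limma's unless the t-test is named, and called means past that threshold. The code was tested on simulated data. A number shared by 2 titles was read as the 2 arrays of a mouse. Deviations from group means over 19498 genes correlated with a median of 0.105 within a mouse and -0.0449 between mice of a group, and the block is an alternative. Within a mouse they ran from -0.178 to 0.240, with 8 of 15 pairs over 0.1. The members, the lists and the tests were chosen with earlier results of these data known. The rule was to give full values for Tgfb1, Tgfb2, Tgfb3 and members past the threshold, for the 12 called members with the largest tissue difference, and for at most 4 genes of each other list. For those 12, levels are given as the lowest, median and highest of 15 arrays. Eng, the other members named without a call, and the neighbours were named after their values were seen. Alternatives tried were 75th percentile scaling, normexp with an offset of 50, the scores as deposited, leaving out dim probes, averaging the probes of each gene, blocking on the slide, the mouse as a replicate block, the methods' t-test, and fits without 1 mouse.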

Additional observations from a re-analysis of the deposited data

Results flagged for a closer look

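In groups of 5 mice of a genotype in a tissue, a gene on which the highest or lowest mouse lay unusually far from the other 4 was marked, which happened in 9 of 172 groups, and chance marks about 1 in 20. Mouse 0, a 3xTgAD-BKO male, accounted for 5 of them. Its hippocampal array, the one with 154 non-uniform spots, had Tgfb3 at 9.81 (next 10.66), Ltbp1 at 6.41 (next 7.91) and Tgif1 at 9.404 (next 8.39), and its brain array had Tgfb1 at 7.93 (next 6.97) and Smad2 at 9.61 (next 9.80). The hippocampal array of 3xTgAD mouse 4, 1 of the 4 with high choroid plexus markers, had Bmp4 at 9.70 (next 8.63) and Bmp6 at 10.07 (next 8.01). For 3xTgAD mouse 5, Lrrc32 in the brain was 10.59 (next 9.92) and Fst in the hippocampus 9.03 (next 8.44). The part of the spots or of choroid plexus in these values was not tested.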

How the results depend on the processing

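The number of members called depended on how slides and spread were handled. Within a tissue, only the 3xTgAD-BKO males spanned slides, so the slide terms rested on them. With the slide as a block their change from 3xTgAD males rested on 1 mouse. That was mouse 0 in the hippocampus, whose array had 154 non-uniform spots, and mouse 8 in the brain. With the slide as a block, tissue calls fell from 30 to 14, while those between 3xTgAD-BKO and 3xTgAD in the hippocampus went from 1 to 10 over both sexes and from 1 to 17 in males, those against WT from 1 to 6 and those of the sex difference from 0 to 11. In the brain they went from 1 to 4 over both sexes, from 0 to 3 in females and from 1 to 3 in males, and for the difference of the change between tissues from 0 to 3. In the same fits the share of all genes called was 17.95% between tissues, 11.3%, 15.4%, 8.88% and 13.4% for the 4 hippocampal comparisons in that order, 6.05%, 2.76% and 2.89% in the brain and 6.79% for the last. With the mouse as a replicate block over all 30 arrays, hippocampal counts were 5 over both sexes, 1 in females, 8 in males, 2 against WT and 7 for the sex difference, and 2 in the brain of males, with 3.02%, 2.41%, 5.05%, 2.91%, 8.18% and 0.942% of all genes called.

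The methods' t-test without adjustment gave, in the hippocampus, 7 over both sexes, 9 in females, 7 in males, 8 against WT and 7 between JHT and WT, and in the brain 8, 11, 5, 8 and 2, with 6.76%, 13.3%, 10.8%, 13.5% and 9.28% of all genes in the hippocampus and 12.8%, 17.7%, 8.32%, 12.99% and 5.76% in the brain in the same order. After adjustment it gave 0 in the hippocampus over both sexes, in males and against WT, and 0 in the brain in males and against WT. Normexp gave 2 in males in each tissue. Leaving out dim probes gave 3 in males and 1 for the sex difference in the hippocampus, and 2 over both sexes, 1 in females and 2 in males in the brain. The mean of a gene's probes gave 2 over both sexes and 2 in males in the hippocampus, and the deposited scores 0 in males in the brain. Scaling to the 75th percentile moved the median tissue difference of all genes to 0.30, with 14 members called higher and 15 lower in the hippocampus.

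Without 1 mouse, hippocampal counts ranged from 1 to 2 over both sexes (2 without mouse 9), 0 to 1 in females (1 without mouse 6), 0 to 5 in males (0 without mouse 0, 4, 5 or 8, 2 without 6 or 7, 5 without 9), 0 to 1 against WT (0 without 1, 2, 10 or 12) and 0 to 3 for the sex difference (1 without 6, 3 without 9). Brain counts ranged from 1 to 4 over both sexes (4 without 8, 3 without 9), 0 to 3 in females (3 without 8, 1 without 9), 0 to 1 in males (0 without 1 to 7 or 11 to 14), 0 to 2 against WT (0 without 2, 1 without 1, 10 or 12) and 0 to 2 for the sex difference (2 without 8).

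Signs turned for Tgfb2 between 3xTgAD-BKO and 3xTgAD in the hippocampus with normexp (-0.0187), for the tissue differences of Tgfb3 (0.27) and Ltbp4 (-0.0754) with the slide as a block, and without 1 mouse for Tgfb3 between 3xTgAD-BKO and 3xTgAD in the hippocampus (-0.18 without mouse 8 to 0.10 without mouse 0) and in the brain (-0.0182 without mouse 8 to 0.0930 without mouse 0), for Eng between the males of these genotypes in the hippocampus (-0.15 without mouse 0) and for Acvrl1 between JHT and WT in the brain (-0.0232 without mouse 12 to 0.20 without mouse 10). Acvrl1 stayed called over both sexes in every alternative in the brain, and in the hippocampus in all but the adjusted t-test (adjusted p = 0.0762). The cause of these shifts was not tested. Bambi, not well above background on any array, could not be measured.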
